A study of Mus musculus with 12 samples.

Results

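The sodium-potassium ATPase is the pump on the basolateral side of tubular cells that moves sodium out and potassium in. The 5 genes described here encode 2 of its beta subunits (Atp1b1 and Atp1b3) and 3 of the small FXYD membrane proteins that modulate it (Fxyd2, Fxyd4 and Fxyd5). They were taken by name from the 23420 genes of the count table, with earlier results of these data known but no measured value in the rule, and all 5 were present.

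RNA was sequenced from 12 kidneys of C57BL/6J male mice, 8 to 15 weeks old by the study's methods, with 4 kidneys in each of 3 groups. The control kidneys were those removed at nephrectomy, although the labels give an ischemia of 20 min and a sacrifice after 24 h for every kidney. The other 8 kidneys had the renal pedicle clamped and were taken after 24 h of reperfusion. Titles and group fields of these 8 kidneys contradict each other, so the kidneys titled anaesthetised with a group field of conscious are called ischemia set A, those titled conscious with a group field of anaesthesia are called ischemia set B, and no direction is assigned to anaesthesia. Whether 2 kidneys came from 1 animal is not given, so the p-values measure the spread between these kidneys. Each kidney had a total of 15367342 to 44793350 gene counts, and a level is given as CPM, the counts scaled to that total. A total of 3 counts, taken as the floor, stood for 0.067 to 0.195 CPM, which covers counting error only. In these whole kidneys, fewer cells of a type and less RNA per cell cannot be told apart.

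The catalytic alpha subunit splits ATP and carries the ions. The beta subunit is a glycoprotein that the alpha subunit needs to fold and to reach the membrane, and Atp1b1 is the main beta subunit of the tubule. FXYD proteins cross the membrane once and adjust the affinity of the pump for its ions. Fxyd2, the gamma subunit, is known from the proximal tubule and the thick ascending limb, Fxyd4 (also called CHIF) from the collecting duct, and Fxyd5 (dysadherin) from epithelia in which it also affects cell adhesion.

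The FXYD genes are named after a short signature next to the membrane. The coding stretches that hold it are shown because they are what the 3 FXYD members have in common, and their capitals mark the 4 codons of the signature. They were read 5′ to 3′ from the transcripts of GENCODE vM21 (GRCm38, the assembly of mm10), as part of the longest open reading frame.
Fxyd2: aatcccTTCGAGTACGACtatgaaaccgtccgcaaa
Fxyd4: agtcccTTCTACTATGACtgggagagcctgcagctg
Fxyd5: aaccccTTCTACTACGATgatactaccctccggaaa

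The Fxyd2 stretch lies on the plus strand at chr9:45408129-45408144 and, after an intron, at chr9:45408300-45408319. On the minus strand, the Fxyd4 stretch lies at chr6:117935009-117935024 and chr6:117934481-117934500. The Fxyd5 stretch lies at chr7:31035386-31035401 and chr7:31035264-31035283, also on the minus strand. In all 3 genes an exon junction falls at the same place, after 16 of the 36 bases. Fxyd2 and Fxyd5 had 72.2% of these bases in common, Fxyd2 and Fxyd4 58.3%, and Fxyd4 and Fxyd5 55.6%. No member shared a run of more than 43 bases with a transcript of the 18 other pump genes compared.

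In the annotation, Atp1b1 covers chr1:164437109-164458355 on the minus strand, with 7 exon blocks, and shares 575 exon bases with Nme7 on the opposite strand. The strand setting of the counting is not given in the sources used here, so reads from these bases cannot be assigned with certainty. Atp1b3 lies at chr9:96332655-96364442, minus strand. Fxyd2 lies at chr9:45399669-45410278, plus strand, Fxyd4 at chr6:117933559-117937692, minus strand, and Fxyd5 at chr7:31032722-31042481, minus strand, where its exons contain the microRNA gene Mir7050.

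Atp1b1 was lower after ischemia in both sets, and it was the single member that passed the test. Of the 5 members, 4 passed the low-count filter of edgeR and were tested. The edgeR quasi-likelihood test, with Benjamini-Hochberg adjustment over 11664 genes and a threshold of 0.05, called 1 of the 4 in set A against control, where it called 22.3% of all genes tested. It called the same 1 of 4 in set B against control, where the share of all genes was 22.8%. Between the sets it called 0 of 4 members, with 0.00857% of all genes called, and none of the 4 had an unadjusted p below 0.05. DESeq2 and limma-trend also called 0 members between the sets.

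Atp1b1, the main beta subunit of the kidney, was at 847, 914, 857 and 987 CPM in the 4 control kidneys. It was at 422, 519, 521 and 512 CPM for set A and at 413, 464, 473 and 690 CPM for set B. All 8 ischemic kidneys therefore lay below all 4 control kidneys, and 1 kidney of set B lay between the rest of its set and the controls. The mean was 901 ± 64.5 CPM in controls, 494 ± 47.7 for set A and 510 ± 123 for set B (SD, n = 4 each). The log2 fold change was -0.89 (SE 0.14, edgeR adjusted p = 6.99e-05) in set A, which is 1.86-fold lower, and -0.85 (SE 0.14, edgeR adjusted p = 0.000119) in set B, 1.80-fold lower. In an exact permutation test of CPM both differences had p = 0.0286, the smallest that 4 kidneys against 4 allow, and 0.114 after adjustment over the 12 exact tests of the tested members. Groups that do not overlap were found for 28.5% of all genes tested in set A against control and for 26.8% in set B. Between the sets, the log2 difference was 0.04 with a 95% interval of -0.27 to 0.36.

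Atp1b3, a beta subunit found in many tissues, had few counts and scattered widely within each group. The control kidneys had 99, 176, 21 and 69 counts (4.86, 4.50, 0.784 and 1.77 CPM). In set A the counts were 145, 99, 172 and 0, and in set B 146, 16, 21 and 73. Every group held kidneys above 4 CPM and kidneys near or below 1 CPM, so the groups overlapped over nearly their whole range. The log2 fold change was 0.08 (SE 1.14) for set A and -0.04 (SE 1.14) for set B, with 95% intervals of -2.49 to 2.66 and -2.62 to 2.54. A change of several-fold in either direction was thus not detectable for Atp1b3.

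**Figure D1:**
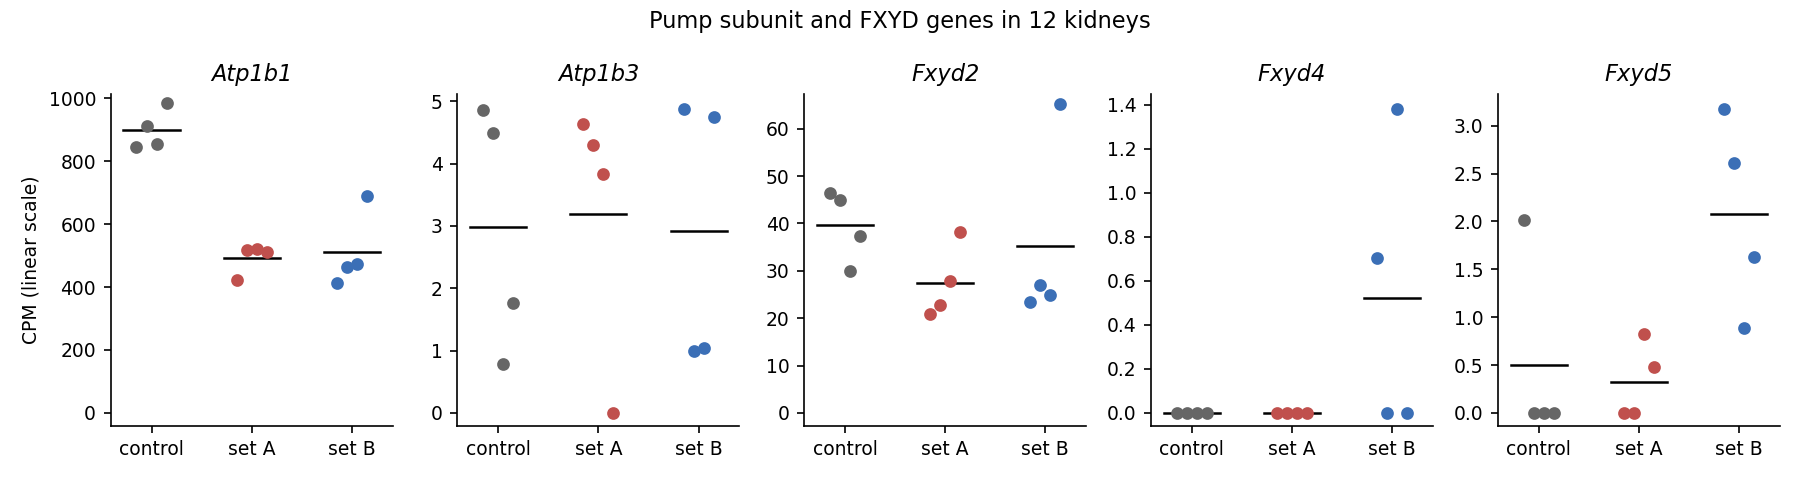
CPM on linear axes for the 5 members, with a point for each of the 4 kidneys of a group and a black line at the group mean. For Atp1b1 all ischemic kidneys, at 413 to 690 CPM, sit below the controls at 847 to 987, while the groups overlap for Atp1b3 and Fxyd2 and many points of Fxyd4 and Fxyd5 are at 0.

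Fxyd2, the gamma subunit, was at 46.4, 44.8, 29.9 and 37.3 CPM in controls. The kidneys of set A had 21.0, 22.7, 27.7 and 38.2 CPM, and those of set B had 23.5, 27.0, 24.9 and 65.2 CPM. In each set 3 kidneys lay below every control and 1 kidney did not, and the highest Fxyd2 level of all 12 kidneys was in replicate 4 of set B. The log2 fold change was -0.55 (SE 0.31, edgeR adjusted p = 0.242) for set A and -0.20 (SE 0.31, edgeR adjusted p = 0.748) for set B, so neither passed the threshold. Without replicate 4 of set B, the level of that set was 25.1 ± 1.76 CPM (SD, n = 3) and its log2 fold change was -0.67 (edgeR adjusted p = 0.0753). The intervals of the main fit, -1.24 to 0.14 and -0.89 to 0.49, include both no change and a loss as large as that of Atp1b1.

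Fxyd4 had 0 counts in all 4 controls and in all 4 kidneys of set A. In set B it had 21, 0, 28 and 0 counts. With 10 of 12 kidneys at 0 it did not pass the filter, and no fold is given. This collecting duct gene was therefore detected in 2 kidneys, both of set B, at 0.702 and 1.38 CPM. The exact permutation p of set B was 0.429 against control and 0.429 against set A.

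Fxyd5, known from epithelia and tumour cells, had 41, 0, 0 and 0 counts in controls. It had 0, 0, 37 and 8 counts for set A and 95, 42, 18 and 25 counts for set B. All 4 kidneys of set B had counts, against 1 control and 2 kidneys of set A. On the CPM scale, set B (0.889 to 3.18) did not overlap set A (0 to 0.826), a pattern found for 2.65% of all genes tested. Fxyd5 passed the low-count filter only with set B in the data, the group in which it was highest. The comparisons of set B for this gene, with their p-values, are therefore description only. The exact permutation p between the sets was 0.0286, and 0.114 after adjustment over the same 12 exact tests. The nearest kidneys of the sets, at 0.826 and 0.889 CPM, had exact 95% Poisson intervals of 0.582 to 1.14 and 0.527 to 1.40 CPM, which overlap and cover counting error only. In edgeR the log2 difference between the sets was 2.66 (SE 2.29, adjusted p = 0.9997), and 2.24 to 3.69 when single kidneys were left out. Set B against control had a log2 fold change of 2.08 (SE 2.24, edgeR adjusted p = 0.612) and an exact permutation p of 0.0857. Without the 1 control with counts the remaining controls were all at 0, so the fitted fold change of that fit is not read (edgeR adjusted p = 0.0575).

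Among 14 other pump genes in the table, 5 were tested. Beside 22.3% of all genes tested, 2 of the 5 passed in set A, and beside 22.8%, 3 of the 5 in set B. In set A, 1 was higher, 1 was lower and 3 did not pass the threshold. In set B, 1 was higher, 2 were lower and 2 did not pass, and none passed between the sets. With 5 genes that went both ways, the median log2 fold changes of -0.78 and -0.47 (-0.016 and -0.018 over all genes tested) are those of Fxyd6, which had few counts and passed in neither set.

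Atp1b2, the beta subunit of glia and muscle, fell in set B (-1.47, SE 0.44, edgeR adjusted p = 0.0207), from 20.0 ± 6.00 to 7.40 ± 3.63 CPM (SD, n = 4 each). This call was lost without control 3 (-1.24, edgeR adjusted p = 0.0802) or replicate 2 of set B (-1.23, edgeR adjusted p = 0.0560). In set A it had a log2 fold change of -0.41 (SE 0.43), and the difference between the sets did not pass adjustment (-1.06, SE 0.44, edgeR adjusted p = 0.941). Atp4a, the catalytic subunit of the gastric proton-potassium pump, fell in both sets, from 65.2 ± 8.97 CPM to 21.9 ± 3.51 and 16.2 ± 12.6 (log2 -1.60 and -2.05, edgeR adjusted p = 0.00201 and 0.000235). Without replicate 4 of set B, Atp4a in that set was at 9.94 ± 2.28 CPM (SD, n = 3), with a log2 fold change of -2.73. Nkain1, a membrane protein that binds the beta subunit, rose from 10.6 ± 7.68 CPM to 30.1 ± 4.04 and 33.9 ± 10.5 (log2 1.47 and 1.64, edgeR adjusted p = 0.00884 and 0.00391). Without control 4, the log2 fold changes of Nkain1 were 2.08 and 2.24. Fxyd1 and Fxyd6 did not pass the threshold in either set, at log2 fold changes between -1.93 and -0.0048. The 9 that were not tested were Atp1a4, Atp1b4, Fxyd3, Fxyd7, Atp4b, Atp12a, Nkain2, Nkain3 and Nkain4, and 6 of these (Atp1b4, Fxyd3, Fxyd7, Atp4b, Nkain3 and Nkain4) had 0 counts in all 12 kidneys.

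**Figure D2:**
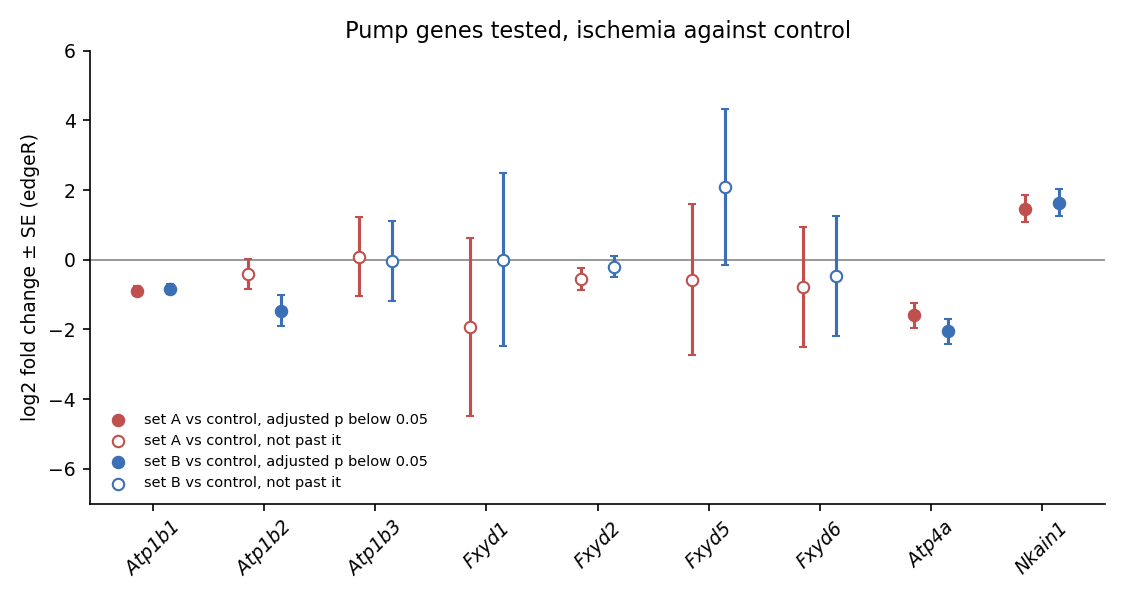
Log2 fold change with its SE from edgeR for 9 pump genes tested, red for set A and blue for set B against control, filled where the adjusted p was below 0.05. Atp1b1 is filled in both sets at -0.89 and -0.85, Atp4a and Nkain1 are filled in both, at -1.60 and -2.05 and at 1.47 and 1.64, and the FXYD genes are open circles, with the longest bars for Fxyd1, Fxyd5 and Fxyd6.

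To compare the members without the library total, the counts of 2 genes were set against each other within each kidney. Fxyd2 had 5.48, 4.91, 3.49 and 3.78 counts per 100 counts of Atp1b1 in controls. Set A had 4.97, 4.38, 5.32 and 7.46, and set B had 5.69, 5.82, 5.27 and 9.45. The groups overlapped, and replicate 4 was the highest kidney of each set. The log2 differences from control of 0.32 and 0.56 had exact permutation p of 0.229 and 0.0571, and adjusted p of 0.411 and 0.129 over 9 comparisons of ratios that were added after the data were seen.

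Fxyd5 had 4.34, 0, 0 and 0 counts per 100 counts of Fxyd2 in controls. This ratio was 0, 0, 2.98 and 1.25 for set A and 13.5, 9.66, 3.56 and 2.50 for set B. All kidneys of set B had a ratio above 0, but its lowest kidneys lay within the range of the other groups. Within the subunit classes, Atp1b3 over Atp1b1 had exact permutation p of 0.4 or more in the 3 comparisons. Fxyd5 over Fxyd2 had an exact permutation p of 0.0571 between the sets and 0.0857 in set B against control, both 0.257 after adjustment over the 9 comparisons of these ratios. Fxyd4 over Fxyd2 was not read, since Fxyd4 was at 0 in 10 kidneys.

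**Figure D3:**
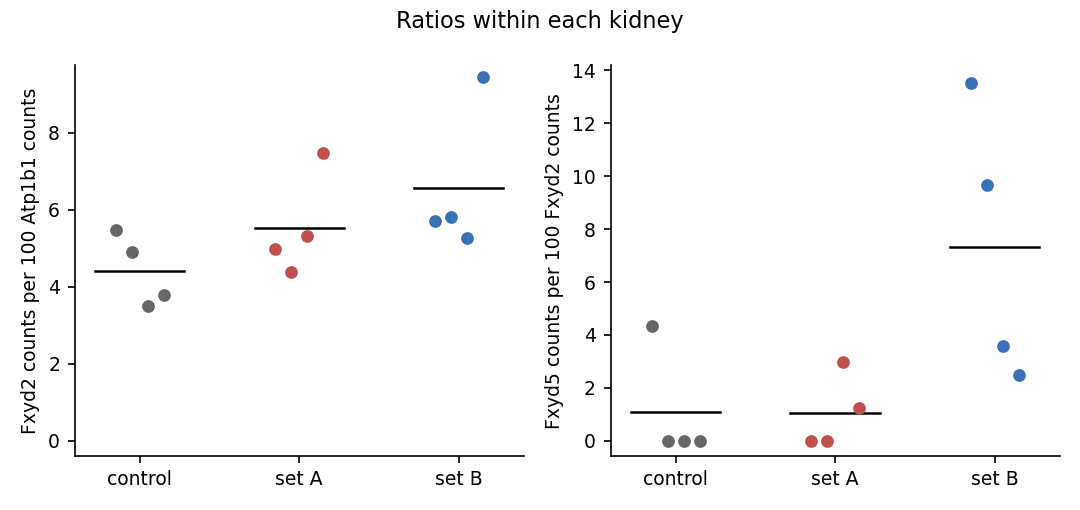
Counts of Fxyd2 per 100 counts of Atp1b1 (left) and counts of Fxyd5 per 100 counts of Fxyd2 (right), on linear axes, with a point for each kidney and a black line at the mean of each group of 4. The groups overlap in both, with the highest kidney at 9.45 on the left and at 13.5 on the right, both in set B.

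Per length, the members lay far apart. Levels were divided by the exon bases of each gene, in CPM per 1000 bases. In controls Atp1b1 was at 292 ± 20.9, Fxyd2 at 9.89 ± 1.89, Atp1b3 at 1.25 ± 0.841, Fxyd5 at 0.120 ± 0.240 and Fxyd4 at 0 (SD, n = 4 each). The order was the same in set A, with 160 ± 15.5 for Atp1b1, 6.84 ± 1.93 for Fxyd2, 1.34 ± 0.902 for Atp1b3, 0.0776 ± 0.0959 for Fxyd5 and 0 for Fxyd4. In set B the levels were 166 ± 39.9 for Atp1b1, 8.78 ± 5.01 for Fxyd2, 1.22 ± 0.919 for Atp1b3, 0.495 ± 0.243 for Fxyd5 and 0.266 ± 0.339 for Fxyd4. Atp1b1 lay above Fxyd2 and Fxyd2 above the other 3 members in every kidney of each group. Below them, the ranges of Atp1b3 and Fxyd5 overlapped in all groups, and in set B that of Fxyd4 overlapped both. With the length of the longest transcript instead, Fxyd2 stood at 23.4 and Atp1b1 at 349 in controls.

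**Figure D4:**
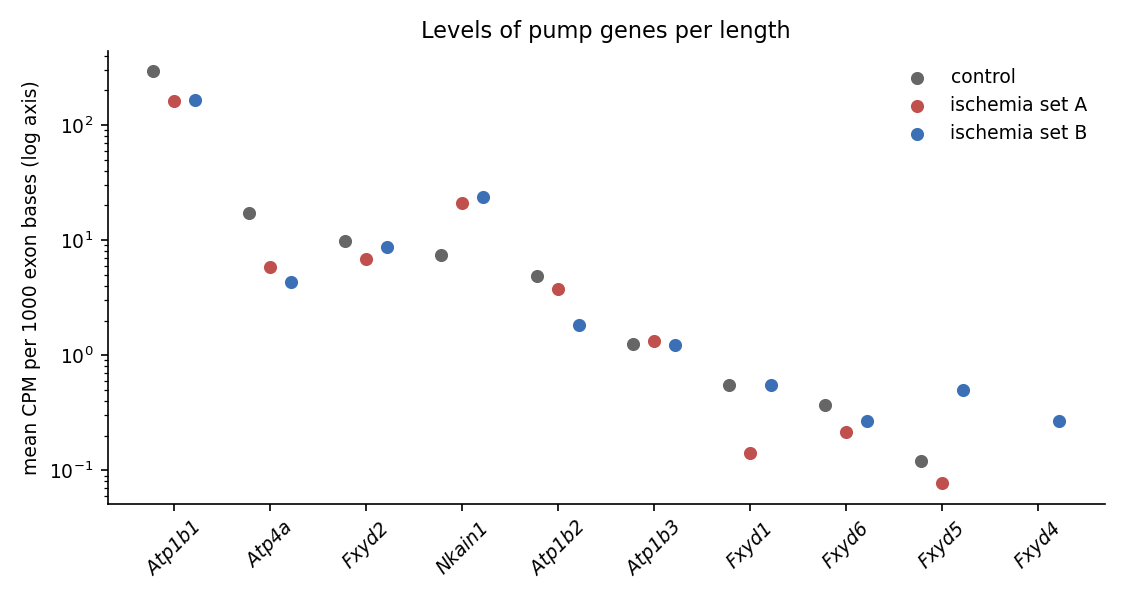
Mean CPM per 1000 exon bases on a log axis for 10 pump genes, with a point for each group of 4 kidneys and no point where the mean is 0. Atp1b1 (292 in controls) stands above the other genes shown, and Fxyd4 has a point in set B alone.

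A pair of kidney genes, chosen after their values were seen, had low levels in these libraries. Kap, a proximal tubule gene known for its abundance in male kidney, was at 37.2 to 51.7 CPM in controls, and Cox6c, a small subunit of the respiratory chain, at 0 to 4.37 CPM. Of protein-coding genes with a longest transcript of up to 1000 bases, 24.0% had a count in some control kidney, against 81.1% of those above 5000 bases. Ribosomal protein genes had a median of 60.2 CPM in controls for 33 with a longest transcript of up to 1000 bases and of 77.2 CPM for 46 with a longer one. The longest Fxyd2 and Fxyd4 transcripts have 1694 and 1199 bases, in a length class in which 46.5% were detected, and the longest Fxyd5 transcript has 2998 bases, in a class with 59.7%. The part of transcript length in the low levels of the FXYD genes was not tested.

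The genes that surround the pump in sodium transport moved in the same direction as Atp1b1 or did not pass the test. Of 19 genes for sodium entry and potassium recycling, 8 fell in set A, as did 9 in set B, while none rose. Over all genes tested, 22.3% and 22.8% were called. The median log2 fold change of the 19 genes was -0.58 and -0.75. Slc34a1, the phosphate cotransporter of the proximal brush border, fell from 4866 ± 309 CPM to 424 ± 161 and 427 ± 205, and Slc12a1, the cotransporter of the thick ascending limb, from 1495 ± 51.7 to 180 ± 15.4 and 259 ± 191 (SD, n = 4 each). Their log2 fold changes were -3.55 and -3.53 for Slc34a1 and -3.07 and -2.56 for Slc12a1, with edgeR adjusted p of at most 2.61e-06. In set B, thick ascending limb markers, Slc12a1 among them, summed to 838 CPM in replicate 4 and to 283 to 300 in the others.

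Of 11 genes for corticosteroid and transcriptional control, 6 fell in set A, as did 4 in set B, while none rose, beside 22.3% and 22.8% of all genes tested. Their medians were -0.83 and -0.78, against -0.016 and -0.018 over all genes. Esrrg, an orphan nuclear receptor of oxidative tissues, fell by 1.17 and 0.78 on the log2 scale, while Ppargc1a, a coactivator of mitochondrial genes, had log2 fold changes of -1.16 and -0.85 (edgeR adjusted p of at most 0.00468 for both genes). Of 11 tested pumps for calcium, copper and other ions in the same enzyme family, 2 fell in each set and none rose, a share no higher than that over all genes tested. These were Atp2a2, the calcium pump of the endoplasmic reticulum (-0.73 and -0.63, edgeR adjusted p = 8.28e-06 and 4.71e-05), and Atp2b2, a calcium pump of the plasma membrane (-1.27 and -1.10, edgeR adjusted p = 0.0175 and 0.0396).

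Markers of the tubular cells that carry the pump were read against the 22.3% and 22.8% called over all genes tested, and segments were not compared with each other. All 10 proximal tubule markers fell in both sets, and their summed level was 7563 to 8551 CPM in controls, 748 to 1416 for set A and 472 to 1515 for set B. For the thick ascending limb, 2 of 7 fell in each set and the sum went from 1820 to 1956 CPM down to 312 to 402 and 283 to 838. Those that fell were Slc12a1 and Egf, and the other 5 summed to 175 to 190 CPM in controls, 146 to 206 for set A and 102 to 295 for set B. In the distal convoluted tubule 2 of 6 fell in set A, as did 3 of 6 in set B, while 0 of 9 principal cell markers and 1 of 8 intercalated cell markers (Slc4a1, lower) passed in each set. The principal cell sum was 145 to 197 CPM in controls, 138 to 182 for set A and 104 to 318 for set B. The part of these cells in the lower Atp1b1 level was not tested.

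The same shares of all genes tested stand beside the counts for the other cell types. Of 10 markers of injured tubule, 8 rose in each set, and their sum was 248 to 286 CPM in controls, 2745 to 2967 for set A and 2203 to 2759 for set B. Havcr1 (kidney injury molecule 1) was at 0 to 0.0255 CPM in controls, 4.04 to 14.8 for set A and 0.592 to 24.4 for set B. Lcn2, the other injury marker, was at 0 to 0.0257, 4.51 to 20.3 and 9.13 to 26.7 CPM. Fibroblast and pericyte markers rose in 4 of 7 tested in each set (634 to 888, 1541 to 4128 and 1867 to 3512 CPM in sum). These were Col1a1, Col1a2, Col3a1 and Acta2, and the other 4 in the table summed to means of 45.02, 54.6 and 47.8 CPM. Of 7 endothelial markers, 0 passed for set A and 1 fell for set B (Tek), and of 5 markers of macrophages, monocytes and neutrophils 1 rose (Cd14) and 1 fell (Csf1r) in each set. The single tested T and B cell marker, Cd3e, was near the floor in controls (1.80 ± 1.91 CPM) and at 0 in all ischemic kidneys. It was called lower in both sets (edgeR adjusted p = 0.0412 and 0.0472). The single tested red cell marker, Alas2, was called lower in set B, from 2.40 ± 1.99 CPM in controls to 0 (edgeR adjusted p = 0.0266). The other 6 T and B cell markers and the other 2 red cell markers in the data were at 0 in all groups, controls included. Fat markers were at 0 in all kidneys, and of the adrenal markers only Star had any count.

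Replicate 4 of set B held the highest Atp1b1 and Fxyd2 levels of its set. In that kidney the thick ascending limb markers summed to 838 CPM, against 283 to 300 in the rest of its set, and the principal cell markers to 318, against 104 to 166. Its intercalated cell markers summed to 521 CPM, against 182 to 309, its proximal tubule markers to 472, against 723 to 1515, and its total of 15367342 counts was the lowest of all. Whether these differences have a part in its pump gene levels was not tested. Without this kidney, Atp1b1 in set B had a log2 fold change of -1.02 (edgeR adjusted p = 1.48e-06).

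Across the 8 ischemic kidneys, Atp1b1 and Fxyd2 were highest in the same kidney. Their log2 CPM had a Pearson r of 0.87 (permutation p = 0.0217, 0.217 after adjustment over 10 pairs of members) and a Spearman rho of 0.64 (permutation p = 0.0962, 0.787 after adjustment). Without the 2 kidneys farthest from the median of Atp1b1, r was 0.53 over the other 6. With each set centred on its own mean, r was 0.89. No pair of members passed the adjustment.

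The genes whose pattern over the 12 kidneys was most like that of a member were found by the root mean square difference in log2 CPM, centred on the control mean, among genes whose mean log2 CPM reached 3. For Atp1b1 the nearest were Pdha1 (0.14), a subunit of pyruvate dehydrogenase, and Ogdh (0.15), a subunit of oxoglutarate dehydrogenase, against a median of 0.87 over 6447 genes. Pdha1 went from a mean of 180.0 CPM in controls to 95.5 for set A and 115 for set B, and Ogdh from 2196 to 1137 and 1242. For Fxyd2 they were Nos1ap (0.21), Thra (0.26), a thyroid hormone receptor, and Cnnm4 (0.27), against a median of 0.77. For Atp1b3 (Avpr2, Gtf2h4 and Spns1) and Fxyd5 (Krt15, Scg5 and Pde10a) the differences were at least 1.08 and 1.70, against medians of 1.83 and 2.61 over the genes compared with each.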

How the data were processed

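Stranded mRNA libraries of 12 mouse kidneys were sequenced as single reads. The authors used STAR for mapping to mm10 and HTSeq for counting, and deposited raw counts of 23420 genes that were not normalized. Versions, annotation release and strand setting are not given in the sources used here. Total counts were 15367342 to 44793350 per kidney.

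Counts were analysed in edgeR 4.0.16 (R 4.3.3). Its default filter (minimum count 10, minimum total 15) left 11664 genes, TMM scaled the libraries, and 1 fit over the 3 groups gave two-sided quasi-likelihood F-tests with Benjamini-Hochberg adjustment and a threshold of 0.05. Intervals of 95% used the SE and a t distribution with 9 residual degrees of freedom. Ratios within a kidney used log2 of counts plus 0.5. Exact permutation tests were two-sided. The procedure was tested on simulated data. Positions, exon lengths and transcripts came from GENCODE vM21.

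The members, gene lists and tests were chosen with earlier results of these data known. Genes were named by rule: the 5 members, all other pump genes in the table, from each other list at most 4 genes (the 2 smallest adjusted p in each comparison with control), the 3 genes most like each member, Havcr1 and Lcn2. Some genes that this rule names, and ratios that use them, are not reported here. Kap, Cox6c, Nme7, Col1a2, Acta2 and Star were chosen after their values were seen. Alternatives were DESeq2 1.42.0, RLE size factors, no filter, more than 1 CPM in at least 4 kidneys, only the 2 groups compared, a replicate block, limma-trend (limma 3.58.1), leaving out each kidney, another added count (5), ratios of group means and the longest transcript as length. SciPy 1.17.1, NumPy 2.4.6, pandas 2.3.3, Biopython 1.88 and matplotlib 3.10.9 in Python 3.11.15 were used for the rest.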

Additional observations from a re-analysis of the deposited data

Results flagged for a closer look

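A kidney stood apart from the other 3 of its group in 12 of the 40 groups of 4 examined, by a gap to the nearest kidney that took up more of the group's range than Dixon's critical value allows. Chance gives this in about 1 of 20 groups of normally distributed values, a rate that cannot be set against these 40. The ratios reuse the same genes, and in 4 of the 12, all of single genes, the other 3 kidneys had 0 counts. In the flagged ratio of Fxyd5 over Fxyd2, the other controls also had 0 counts of Fxyd5. Among the members these were Atp1b1 in replicate 1 of set A (lowest, 422 CPM), Fxyd2 in replicate 4 of set B (highest, 65.2 CPM) and Fxyd5 in control 1 (highest, 2.01 CPM, the other controls at 0). Among the other pump genes the highest kidneys were Atp1a4 in replicate 2 of set A (1.30 CPM), Atp1b2 in control 3 (29.0 CPM), Fxyd1 in control 1 (4.86 CPM), Atp4a in replicate 4 of set B (34.8 CPM), Atp12a in control 2 (0.306 CPM) and Nkain2 in replicate 1 of set B (0.836 CPM). Among log2 ratios, Atp1b3 over Atp1b1 was lowest in replicate 4 of set A (-14.07, where Atp1b3 had 0 counts), Fxyd5 over Fxyd2 was highest in control 1 (-4.51), and Fxyd2 over Atp1b1 was highest in replicate 4 of set B (-3.40).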

How the results depend on the processing

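The count of members past the threshold was 1, 1 and 0 under every alternative, and Atp1b1 stayed lower and past the threshold in both comparisons with control, at -0.94 to -0.80 for set A and -1.02 to -0.78 for set B when single kidneys were left out and at -0.91 to -0.86 and -0.87 to -0.81 under the other 7 alternatives. Changes of direction occurred only in values that passed the threshold under neither setting, in 37 of 509 alternative log2 fold changes and 8 of 90 alternative ratios, and their cause was not tested. With limma-trend these were Atp1b3 (-0.67) and Fxyd5 (0.43) in set A, Fxyd1 (0.91) in set B and Atp1b3 (0.57) between the sets. With the replicate block they were Fxyd5 (3.27) and Fxyd1 (0.77) in set A, Atp1b3 (0.13) and Fxyd1 (1.74) in set B, and Fxyd6 (-0.094) between the sets. In set B, Fxyd1 turned with RLE size factors (0.0031) and the filter at 1 CPM (0.031). Atp1b3 over Atp1b1 turned with 5 added counts (0.68) and group means (0.99) in set A, and with group means between the sets (-0.20), and Fxyd5 over Fxyd2 with group means in set A (-0.0029).

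Without single kidneys, directions also turned in set A for Atp1b3 (-0.25 to 0.48), Fxyd5 (-1.63 to 6.17), Fxyd1 (-3.93 to 6.10) and Atp1b3 over Atp1b1 (-0.79 to 1.74). In set B this held for Atp1b3 (-0.45 to 0.27), Fxyd1 (-1.58 to 8.01) and Fxyd6 (-1.08 to 0.095). The highest values of Fxyd5 and Fxyd1 against control came without control 1, with the remaining controls at 0, and depend on how 0 is fitted. Between the sets it held for Atp1b1 (-0.12 to 0.13), Atp1b3 (-0.54 to 0.15), Fxyd2 (-0.12 to 0.56), Fxyd6 (-0.29 to 0.72), Nkain1 (-0.018 to 0.31) and Atp1b3 over Atp1b1 (-0.97 to 1.56).

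Same-numbered kidneys did not deviate together (correlations of -0.055 to 0.045), and the numbers are used here to name kidneys, not to pair them. These correlations cover only same-numbered kidneys of different groups and cannot show whether any kidneys came from the same animal, which remains unknown. The replicate block called 2491, 2531 and 1 genes in the 3 comparisons, against 2599, 2659 and 1 without it, and no member's call changed. The count between the sets was 27 with DESeq2, 6 without the filter and 0 with limma-trend, and 587 genes had an unadjusted p below 0.05. With 4 kidneys a group, few counts and a scatter beyond counting error, even several-fold changes of Atp1b3 and Fxyd5 were not detectable. Fxyd4 was not tested.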
